A study of Mus musculus with 6 samples.

Results

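Genes of the T cell receptor complex were examined in dorsal root ganglia (DRGs) of male wild-type mice, as 10 named rows of the 48440 rows in the gene count table. The rows are the receptor constant genes *Trac*, *Trbc1*, *Trbc2*, and *Trdc*, the CD3 chain genes *Cd3d*, *Cd3e*, *Cd3g*, and *Cd247*, and the genes of the proximal kinases, *Lck* and *Zap70*. All 10 were found in the table, and all 10 passed the filter on low counts, which kept 18593 rows for testing. The members were chosen by symbol for what they encode, with earlier results of these data known.

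Unilateral L3/4 DRGs were microinjected with an adeno-associated virus of serotype 5. In 3 libraries the virus carried *Gfp*, the green fluorescent protein gene (AAV5-*Gfp*, the control), and in the other 3 AAV5-*V1* was injected together with AAV5-*V2* to express both transcript variants of *NIS-lncRNA*, a long noncoding RNA induced in DRGs by nerve injury (AAV5-*V1+V2*). The deposited text places tissue collection at 5 weeks and the profiling at 4 weeks after microinjection, and the labels give neither the age of the mice nor the number of animals per library. All 6 libraries came from virus-injected DRGs, with different viruses in the 2 groups, so an effect of the preparation and one of the transcripts cannot be told apart. Total counts were between 32618252 and 34764282 with AAV5-*Gfp* and between 32025612 and 34228594 with AAV5-*V1+V2*. The 8 neuronal marker genes had a summed level of 4981 to 5300 CPM (counts scaled to library size, after TMM normalization) with AAV5-*Gfp* and 3078 to 4446 CPM with AAV5-*V1+V2*, lowest in replicate 1 of the latter, and 0 of the 8 passed edgeR's test. By edgeR 4 of the 8 were lower and 0 higher at an unadjusted p under 0.05. Their median log2 fold change was -0.41, opposite in sign to the receptor genes. DESeq2 called 4 lower and limma-voom called 0. The part of neuronal markers in the results was not tested.

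T cells recognize peptides and other ligands through a clonotypic receptor, an alpha chain paired with a beta chain in most T cells, and a gamma chain paired with a delta chain in the rest. Each chain joins a variable region, assembled by recombination, to a constant region encoded by genes such as *Trac* or *Trdc*. The receptor chains have no signalling domain of their own, and signal through the CD3 gamma, delta, and epsilon chains and the zeta chain (*Cd247*), whose tyrosine motifs are phosphorylated by LCK and then bound by ZAP-70. In sensory ganglia, T cells are a minor population that is known to become more numerous after nerve injury or infection.

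Of the 10 genes, 9 were higher in AAV5-*V1+V2* than in AAV5-*Gfp* DRGs and 0 were lower (threshold of 0.05 on p-values adjusted by Benjamini-Hochberg over all genes tested, quasi-likelihood test of edgeR). Among all genes tested, 10.1% were higher and 5.27% were lower. *Trdc*, the constant gene of the delta chain, was the member that did not pass. The log2 fold changes ran from 1.28 for *Trdc* and 2.53 for *Lck* to 3.88 for *Cd3e* and 3.98 for *Trbc1*, with a median of 3.17 over the 10 genes and of -0.0003 over all genes tested. For each of the 10, every AAV5-*V1+V2* library lay above every AAV5-*Gfp* library, as it did for 23.4% of the genes tested. In whole ganglia, more T cells and more of these transcripts per cell cannot be told apart. An exact permutation test of a single gene over 3 and 3 libraries cannot give a p under 0.1.

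**Figure D1:**
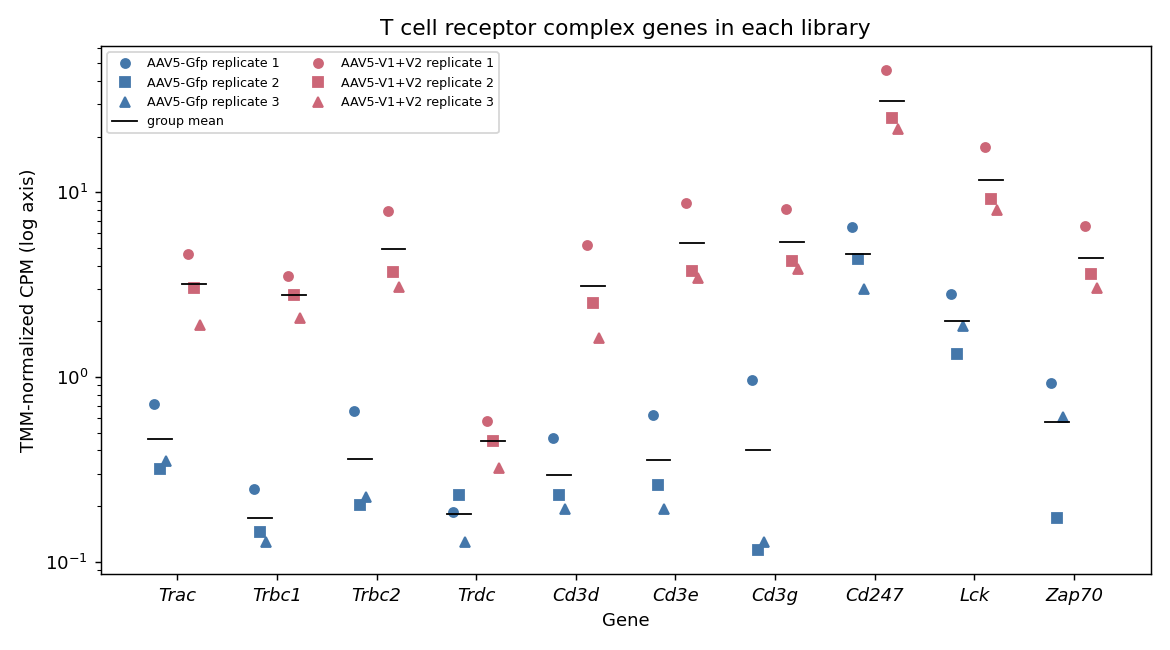
TMM-normalized CPM (log axis) of the 10 genes in each library, with AAV5-*Gfp* in blue, AAV5-*V1+V2* in red, and a black line at each group's mean (n = 3). The groups are apart for all 10 genes, least for *Trdc*, where the lowest AAV5-*V1+V2* library was 1.39 times the highest AAV5-*Gfp* library, and most for *Trbc1*, where it was 8.47 times.

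The alpha chain constant gene *Trac* (ENSMUSG00000076928.5, chromosome 14 of GRCm38, 54220521 to 54224206, plus strand) had 23, 11, and 11 reads in the control libraries (AAV5-*Gfp* replicates 1, 2, and 3, the order used throughout) against 153, 101, and 66 reads in the AAV5-*V1+V2* libraries. The lowest of the latter libraries was well above the highest of the former. Its mean of 3.20 ± 1.37 CPM (SD, n = 3) stood against a control mean of 0.461 ± 0.219 CPM (SD, n = 3). The log2 fold change, 2.79 with a standard error of 0.43, passed the test (adjusted p = 0.0146, edgeR).

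The beta chain has a pair of constant genes on chromosome 6 (plus strand), *Trbc1* (ENSMUSG00000076490.6, 41538218 to 41539881) and *Trbc2* (ENSMUSG00000076498.2, 41546730 to 41548352), and a T cell uses either. *Trbc1* had 8, 5, and 4 reads in the controls against 116, 92, and 72 reads after AAV5-*V1+V2*. *Trbc2* had 21, 7, and 7 reads in the controls against 262, 123, and 106 reads after AAV5-*V1+V2*. Both rose, *Trbc1* by 3.98 on the log2 scale (standard error 0.33, adjusted p = 0.00533 by edgeR's test) and *Trbc2* by 3.77 (standard error 0.55, adjusted p = 0.0144 by the same test). *Trbc1* had the smallest standard error of the 10 genes. Leaving out AAV5-*Gfp* replicate 1, the library with 21 reads, moved the log2 fold change of *Trbc2* to 4.51.

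How the counting divided reads between *Trbc1* and *Trbc2* is uncertain, because their coding exons are close copies. In the GENCODE M21 annotation of GRCm38, exon 1 has 375 bases in each gene and differs at 1 of them, C260A (*Trbc1* base, position counted from 1 at the exon's first base, *Trbc2* base), whereas exon 3 has 107 bases and differs at 15 of them. Of all stretches of 100 bases in the *Trbc1* transcript, 28.7% were found unchanged in *Trbc2*, and 30.9% of those of *Trbc2* were found in *Trbc1*. The sequences below, read from the GENCODE transcripts and written 5′ to 3′, show why a read from the middle of exon 1 can be assigned by 1 base at most, and a read over exon 3 by many. Capitals mark the bases that differ. The first pair is the stretch of 100 bases of exon 1 that holds its differing base, at chr6:41538418-41538517 for *Trbc1* and chr6:41546930-41547029 for *Trbc2*, and the second pair is the whole of exon 3, at chr6:41539229-41539335 and chr6:41547772-41547878.
Trbc1 exon 1: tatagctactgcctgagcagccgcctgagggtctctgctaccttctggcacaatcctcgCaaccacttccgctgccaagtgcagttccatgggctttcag
Trbc2 exon 1: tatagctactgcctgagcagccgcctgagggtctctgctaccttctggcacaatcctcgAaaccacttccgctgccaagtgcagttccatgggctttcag
Trbc1 exon 3: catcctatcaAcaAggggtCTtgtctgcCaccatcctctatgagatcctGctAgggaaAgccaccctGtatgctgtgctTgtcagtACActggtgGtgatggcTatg
Trbc2 exon 3: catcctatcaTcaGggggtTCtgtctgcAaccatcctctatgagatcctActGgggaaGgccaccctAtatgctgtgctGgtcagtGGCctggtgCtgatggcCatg

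The log2 ratio of *Trbc2* to *Trbc1* counts (with 0.5 added to each count) was 1.34, 0.45, and 0.74 in the controls against 1.17, 0.42, and 0.55 after AAV5-*V1+V2*. The ratios of the groups overlapped, and replicate 1 was the highest in each.

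*Trdc*, the delta chain constant gene, lies upstream of *Trac* in the same locus (ENSMUSG00000104876.1, chromosome 14, 54142851 to 54148868, plus strand). It had 6, 8, and 4 reads in the controls against 19, 15, and 11 reads after AAV5-*V1+V2*. These were the fewest reads of the 10 genes in the AAV5-*V1+V2* libraries, and the groups were apart by 3 reads. Its mean of 0.449 ± 0.128 CPM (SD, n = 3) stood against a control mean of 0.182 ± 0.0514 CPM (SD, n = 3). The log2 fold change, 1.28 with a standard error of 0.38, did not pass (adjusted p = 0.0620, edgeR). Its adjusted p was between 0.0437 and 0.185 over 14 alternative fits, and was under 0.05 in 1 of them, the edgeR fit without AAV5-*V1+V2* replicate 3. Its unadjusted p was 0.0115, and an adjusted p over the threshold does not show that its level was the same. An antisense gene, *Gm43434*, overlaps 2.48% of the exonic bases of *Trdc* and had 13, 11, and 15 reads with AAV5-*Gfp* and 50, 30, and 35 reads with AAV5-*V1+V2*. *Gm43434* passed (log2 fold change 1.51, standard error 0.30, adjusted p = 0.0233 by edgeR's test), a call lost with any AAV5-*Gfp* library removed. Its part in the counts of *Trdc* was not tested.

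For alpha-beta against gamma-delta, counts of *Trac* and *Trdc* were set against each other within each library, which removes library size. The log2 ratio of *Trac* to *Trdc* was 1.85, 0.44, and 1.35 in the controls against 2.98, 2.71, and 2.53 after AAV5-*V1+V2*. All AAV5-*V1+V2* libraries had the higher ratio. The means were 1.21 ± 0.72 (SD, n = 3) in the controls and 2.74 ± 0.22 (SD, n = 3) after AAV5-*V1+V2*, a difference of 1.53 (exact two-sided permutation test p = 0.1, the smallest that 3 against 3 allows). Without 1 library the difference was between 1.14 and 1.84.

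The gamma chain constant genes, which are not among the 10, were read with *Trdc*. *Tcrg-C2* had 6, 2, and 2 reads in the controls against 28, 20, and 14 reads after AAV5-*V1+V2* (log2 fold change 2.56, standard error 0.52, adjusted p = 0.0237 by edgeR's test). *Tcrg-C4* had 10, 13, and 11 reads in the controls against 54, 28, and 27 reads after AAV5-*V1+V2* (log2 fold change 1.64, standard error 0.36, adjusted p = 0.0295 by edgeR's test). Both passed the test. Each was called in 2 of the 6 fits that left out 1 library, those without AAV5-*V1+V2* replicate 1 or replicate 3. Without AAV5-*Gfp* replicate 1 the log2 fold change of *Tcrg-C2* was 3.27. Whether either differed from *Trdc* was not tested. *Tcrg-C1*, at 6, 2, and 2 against 18, 8, and 10 reads, and *Tcrg-C3*, at 0, 0, and 0 against 2, 1, and 2 reads, were below the filter. The gamma constant genes are copies of one another, and their separate counts are uncertain where reads are shared. Of all counts on the alpha and beta constant genes and on *Trdc* and the gamma constant genes, the alpha and beta genes held 65.0%, 47.9%, and 53.7% in the controls against 81.4%, 81.4%, and 79.2% after AAV5-*V1+V2*. These are shares of reads, not of cells. They were not corrected for length, and *Trdc* has 3865 exonic bases against 935 for *Trac*. The 95% Clopper-Pearson intervals, which cover counting error only, were widest in the AAV5-*Gfp* libraries, from 53.5% to 75.3% in replicate 1 (80 counts), from 33.3% to 62.8% in replicate 2 (48 counts), and from 37.4% to 69.3% in replicate 3 (41 counts). The lowest interval with AAV5-*V1+V2*, that of replicate 3, was from 74.3% to 83.6% (308 counts), and overlapped that of AAV5-*Gfp* replicate 1 alone.

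**Figure D2:**
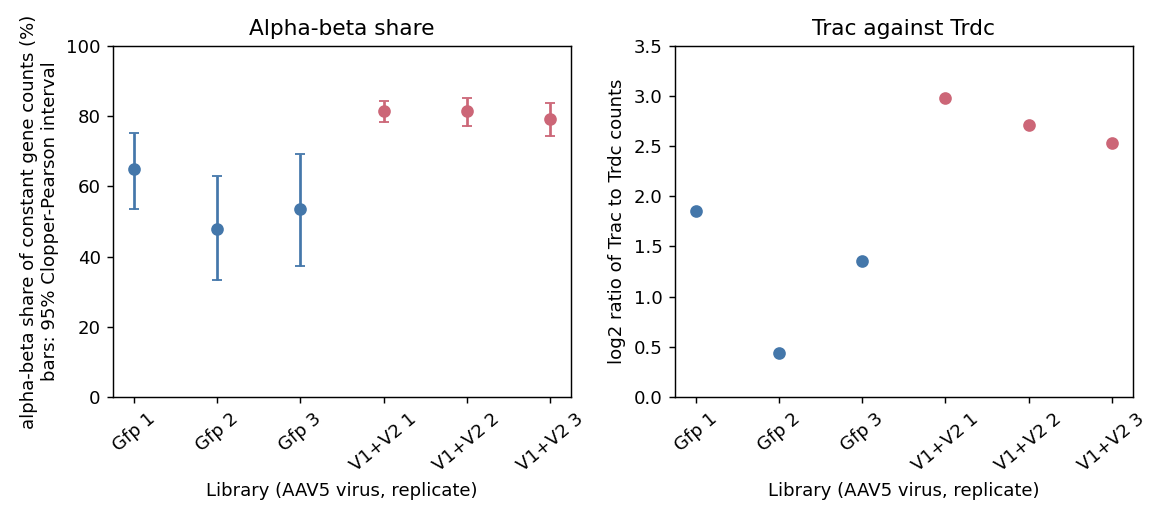
Left, share of T cell receptor constant gene counts on *Trac*, *Trbc1*, and *Trbc2* in each library (%), with 95% Clopper-Pearson intervals, and right, log2 ratio of *Trac* to *Trdc* counts in each library, with AAV5-*Gfp* in blue and AAV5-*V1+V2* in red. The shares were 47.9% to 65.0% with AAV5-*Gfp* against 79.2% to 81.4% with AAV5-*V1+V2*.

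The CD3 genes form a cluster on chromosome 9, with *Cd3g* (ENSMUSG00000002033.14, 44969572 to 44980431, minus strand) and *Cd3d* (ENSMUSG00000032094.8, 44981786 to 44987339, plus strand) transcribed away from each other and *Cd3e* (ENSMUSG00000032093.7, 44998740 to 45009627, minus strand) beside them. *Cd3e*, whose epsilon chain pairs with both the gamma and the delta chain, had 20, 9, and 6 reads in the controls against 287, 125, and 118 reads after AAV5-*V1+V2*. *Cd3g*, the gamma chain of CD3, had 31, 4, and 4 reads in the controls against 266, 142, and 132 reads after AAV5-*V1+V2*. *Cd3d*, the delta chain of CD3, had 15, 8, and 6 reads in the controls against 171, 84, and 56 reads after AAV5-*V1+V2*. In each of the 3 genes, replicate 1 was the highest library of both groups, and the groups did not overlap. All 3 rose together, *Cd3e* by 3.88 on the log2 scale (standard error 0.54, adjusted p = 0.0144), *Cd3g* by 3.74 (standard error 0.70, adjusted p = 0.0197), and *Cd3d* by 3.38 (standard error 0.54, adjusted p = 0.0155), by edgeR's test. AAV5-*Gfp* replicate 1 held 31 reads of *Cd3g* against 4 in each other control, and without it the log2 fold changes were 5.43 for *Cd3g* and 4.52 for *Cd3e*.

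RefSeq promoter sequences (GRCm38.p6, 300 bases around the start) were found for 6 of the 10 genes, and the 3 of the CD3 cluster are shown because these neighbours moved together. Capitals mark matches to GGAA on either strand (TTCC on the other), the core bound by transcription factors of the ETS family. It is a short motif that 96.0% of 32851 promoters hold, with a median of 3 matches. There were 5 matches at *Cd3e*, 2 at *Cd3g*, and 6 at *Cd3d*. None of the 3 held TATAAA on either strand, as 13.6% of promoters do, and each held CANNTG, as 72.3% do. The windows are chr9:45009562-45009861 (minus strand) for *Cd3e*, chr9:44980382-44980681 (minus strand) for *Cd3g*, and chr9:44981536-44981835 (plus strand) for *Cd3d*.
Cd3e promoter: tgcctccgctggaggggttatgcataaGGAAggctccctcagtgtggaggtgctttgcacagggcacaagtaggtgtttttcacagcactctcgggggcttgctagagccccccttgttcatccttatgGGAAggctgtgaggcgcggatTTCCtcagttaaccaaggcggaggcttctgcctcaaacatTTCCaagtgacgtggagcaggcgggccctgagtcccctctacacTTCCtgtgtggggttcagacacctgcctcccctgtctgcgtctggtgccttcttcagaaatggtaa
Cd3g promoter: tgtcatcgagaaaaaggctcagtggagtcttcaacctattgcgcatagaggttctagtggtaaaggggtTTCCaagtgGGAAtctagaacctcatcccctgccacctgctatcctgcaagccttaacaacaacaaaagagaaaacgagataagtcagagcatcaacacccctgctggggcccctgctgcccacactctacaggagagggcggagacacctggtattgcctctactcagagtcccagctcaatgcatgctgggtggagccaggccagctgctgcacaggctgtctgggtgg
Cd3d promoter: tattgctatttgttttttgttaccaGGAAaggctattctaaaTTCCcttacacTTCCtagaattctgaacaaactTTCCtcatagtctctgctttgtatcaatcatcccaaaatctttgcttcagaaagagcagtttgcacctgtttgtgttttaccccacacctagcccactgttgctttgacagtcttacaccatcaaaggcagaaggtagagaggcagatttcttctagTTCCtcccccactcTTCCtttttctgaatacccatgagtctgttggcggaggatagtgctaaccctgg

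*Cd247* encodes the zeta chain, which carries most of the receptor's tyrosine motifs and is also used by natural killer cells (ENSMUSG00000005763.15, chromosome 1, 165788681 to 165877277, plus strand). It had 209, 150, and 94 reads in the controls against 1512, 836, and 759 reads after AAV5-*V1+V2*, the most of the 10 genes in every library. Its mean of 31.0 ± 13.0 CPM (SD, n = 3) stood against a control mean of 4.60 ± 1.75 CPM (SD, n = 3). The log2 fold change, 2.75 with a standard error of 0.36, passed the test (adjusted p = 0.0144, edgeR). *Pou2f1*, a transcription factor gene on the opposite strand, covers 64.0% of the exonic bases of *Cd247*, and whether the counting used strand is not stated. *Pou2f1* itself differed by 0.001 on the log2 scale (standard error 0.09, adjusted p = 0.995 by edgeR's test), with 1654, 1837, and 1678 reads with AAV5-*Gfp* and 1974, 1620, and 1698 reads with AAV5-*V1+V2*. Its part in the control level of *Cd247* was not tested. The log2 ratio of *Cd3e* to *Cd247* was -3.35, -3.99, and -3.86 with AAV5-*Gfp* and -2.40, -2.74, and -2.68 with AAV5-*V1+V2*, so the groups did not overlap, and *Cd247* had the more reads throughout.

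The kinase genes rose with the receptor. *Lck*, the SRC-family kinase that phosphorylates the CD3 and zeta chains (ENSMUSG00000000409.14, chromosome 4, 129548344 to 129573641, minus strand), had 91, 46, and 59 reads in the controls against 578, 307, and 274 reads after AAV5-*V1+V2*. *Zap70*, the kinase recruited to the phosphorylated chains (ENSMUSG00000026117.10, chromosome 1, 36761798 to 36782818, plus strand), had 30, 6, and 19 reads in the controls against 217, 120, and 104 reads after AAV5-*V1+V2*. Neither kinase overlapped between the groups, and AAV5-*Gfp* replicate 2 was the lowest library of both. The log2 fold change was 2.53 for *Lck* (standard error 0.38, adjusted p = 0.0144) and 2.95 for *Zap70* (standard error 0.53, adjusted p = 0.0186), by edgeR's test.

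Levels of the 10 genes were also compared per length, as CPM per kb of exon of coding or receptor transcripts in GENCODE M21. With AAV5-*V1+V2*, *Trbc2* stood highest at 7.10 ± 3.84 (SD, n = 3), followed by *Cd247* at 6.81 ± 2.85, *Cd3g* at 5.27 ± 2.28, *Lck* at 5.00 ± 2.25, *Trbc1* at 3.73 ± 0.95, *Cd3e* at 3.63 ± 2.03, *Trac* at 3.42 ± 1.47, *Cd3d* at 1.82 ± 1.08, and *Zap70* at 1.81 ± 0.79 (SD, n = 3 for each). *Trdc* was lowest at 0.116 ± 0.033 (SD, n = 3). Each gene overlapped its neighbour in this order over the 3 libraries, except *Zap70* and *Trdc*. The annotated *Trdc* transcript has 3865 bases, most of them in a last exon outside the coding sequence. With AAV5-*Gfp*, *Cd247* at 1.01 ± 0.38 (SD, n = 3) and *Lck* at 0.868 ± 0.325 (SD, n = 3) stood highest per length.

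The libraries of a group differed in the same way for most of the 10 genes. AAV5-*V1+V2* replicate 1 was the highest and replicate 3 the lowest of their group for all 10, with replicate 1 between 1.68 times (*Trbc1*) and 3.18 times (*Cd3d*) replicate 3 in CPM. AAV5-*Gfp* replicate 1 was the highest of the controls for 9 of the 10, all but *Trdc*. Summed over the 10 genes, the level was 6.85 to 14.1 CPM in the controls against 49.5 to 109 CPM after AAV5-*V1+V2*. Without AAV5-*V1+V2* replicate 1, the same 9 genes were still called, with log2 fold changes from 2.10 (*Lck*) to 3.79 (*Trbc1*). The calls depended more on the controls. In edgeR's test without AAV5-*Gfp* replicate 2 or without replicate 3, 0 of the 10 genes had an adjusted p under 0.05, although all 10 had an unadjusted p under 0.05. Leaving out AAV5-*Gfp* replicate 2, the adjusted p was 0.0623 for *Trbc1* and between 0.0815 and 0.0843 for the other 8 called genes, and leaving out replicate 3 it was 0.0629 for *Trbc1* and between 0.0875 and 0.0926 for the others. In these fits only 12 (without replicate 2) and 15 (without replicate 3) of all genes were higher. Without AAV5-*Gfp* replicate 1, 8 genes were called and *Zap70* was just over the threshold (adjusted p = 0.05002, edgeR).

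**Figure D3:**
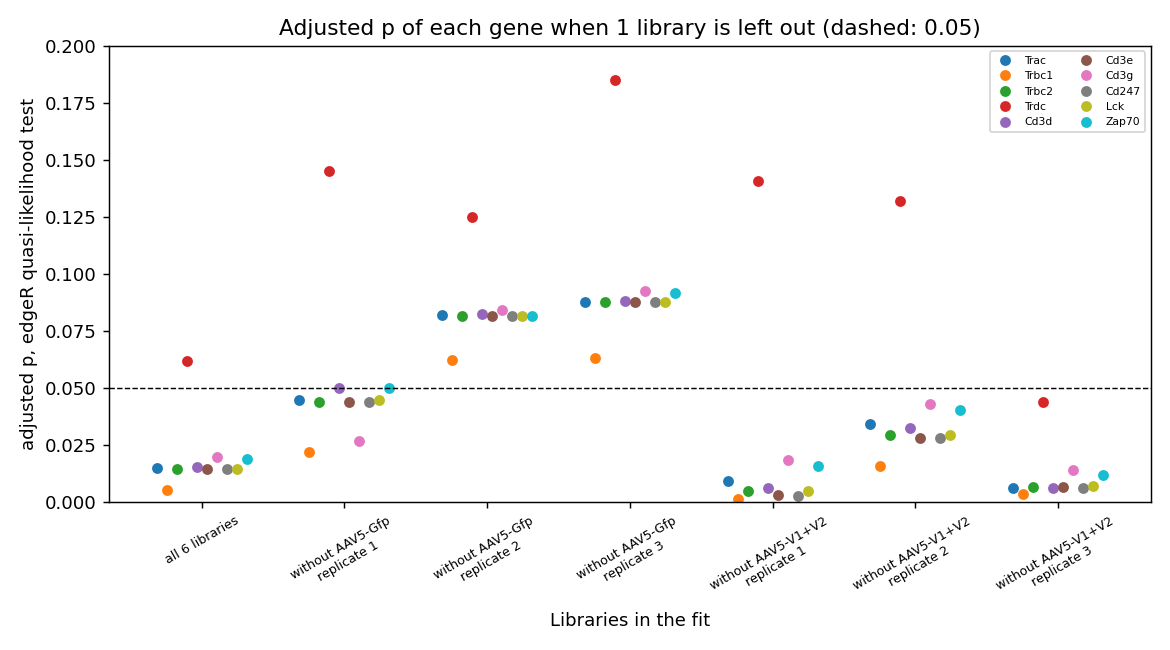
Adjusted p of each gene from edgeR's quasi-likelihood test with all 6 libraries and with 1 library left out, with a dashed line at 0.05. With AAV5-*Gfp* replicate 2 or 3 left out, all 10 genes lie above the line, from 0.0623 upward, and with AAV5-*V1+V2* replicate 3 left out, all 10 lie below it.

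Genes of receptor signalling, with co-receptors, co-stimulators, and regulators among them, were followed in a list of 40, all tested. Of the 40, 30 were higher and 1 was lower, beside 10.1% and 5.27% of all genes tested. The median log2 fold change over the 40 was 1.996. The list includes genes that other leukocytes, and some that neurons, express. The co-receptor gene *Cd4*, which binds major histocompatibility complex class II, had 86, 37, and 40 reads in the controls against 815, 482, and 387 reads after AAV5-*V1+V2* (log2 fold change 3.33, standard error 0.42). The class I co-receptor genes were lower in reads. *Cd8a* had 31, 3, and 6 reads in the controls against 117, 52, and 66 reads after AAV5-*V1+V2*, a difference of 2.50 on the log2 scale (standard error 0.71, adjusted p = 0.0529 by edgeR's test), and did not pass. This call turned with the fit: with all 6 libraries *Cd8a* was higher with total counts only (adjusted p = 0.0473, edgeR), with no filter (0.0294, edgeR), with a replicate block (0.00792, edgeR), in DESeq2 (0.00498), and in limma-voom (0.0423). *Cd8b1* had 25, 3, and 9 reads in the controls against 107, 55, and 63 reads after AAV5-*V1+V2*, and passed (log2 fold change 2.55, standard error 0.60, adjusted p = 0.0343 by edgeR's test). The log2 ratio of *Cd4* to *Cd8a* was 1.46, 3.42, and 2.64 with AAV5-*Gfp* and 2.80, 3.20, and 2.54 with AAV5-*V1+V2*, and the groups overlapped.

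Of the co-stimulator and modulators of the receptor, *Cd28* rose by 3.26 on the log2 scale (standard error 0.31), *Cd5* by 3.19 (standard error 0.32), and *Ubash3a*, a negative regulator, by 2.92 (standard error 0.37). *Ptpn22*, a phosphatase that acts on LCK and ZAP-70, rose by 2.51 (standard error 0.37), and *Ptprc*, which encodes the pan-leukocyte phosphatase CD45, by 2.83 (standard error 0.39). The adaptor gene *Lat*, a substrate of ZAP-70, rose by 2.52 (standard error 0.44), whereas the rise was 1.08 (standard error 0.27) for *Lcp2*, the adaptor SLP-76. *Fyn*, a SRC-family kinase expressed in neurons as well, had 4059, 4485, and 4197 reads with AAV5-*Gfp* and 5907, 4620, and 4922 reads with AAV5-*V1+V2*, and a difference of 0.24 on the log2 scale (standard error 0.11, adjusted p = 0.147 by edgeR's test) that did not pass. The lower gene, named because it was the only one, was *Rasgrp1*, an exchange factor for RAS, at -0.31 on the log2 scale (standard error 0.08, adjusted p = 0.0463 by edgeR's test). Its adjusted p was over 0.05 with total counts only, without a filter, in limma-voom, and without any of the AAV5-*Gfp* replicates or AAV5-*V1+V2* replicate 2. As for the receptor genes, 0 of the 40 were higher with AAV5-*Gfp* replicate 2 or 3 removed, where 33 and 34 had an unadjusted p under 0.05, and 15 were higher when replicate 1 of that group was removed. *Lcp2* was over the threshold in limma-voom (adjusted p = 0.0514). *Lcp2* and *Ptpn22* were also over the threshold when AAV5-*Gfp* replicate 1 was removed, *Lcp2* and *Cd8b1* when AAV5-*V1+V2* replicate 2 was, and *Cd8b1* when AAV5-*V1+V2* replicate 1 was, whereas *Cd8a* passed when AAV5-*Gfp* replicate 1 was removed (adjusted p = 0.0448, edgeR). With that library removed, the log2 fold change moved to 4.06 for *Cd8a*, 3.58 for *Cd8b1*, and 3.12 for *Lat*.

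**Figure D4:**
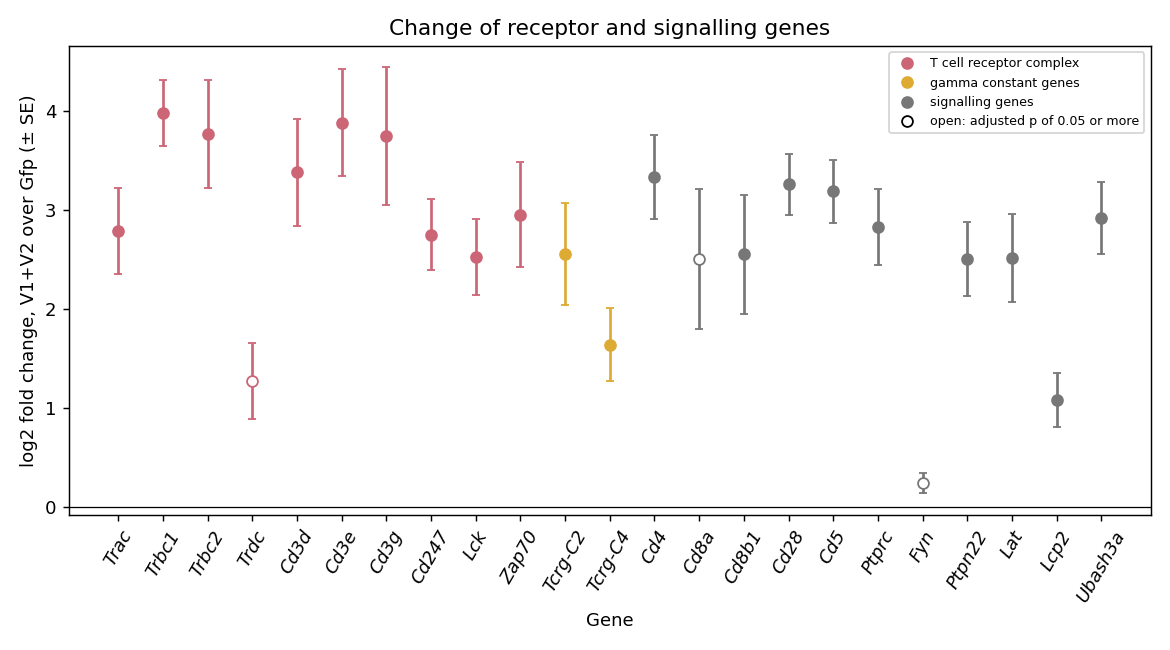
Log2 fold change of AAV5-*V1+V2* over AAV5-*Gfp* with its standard error for the 10 receptor complex genes (red), the tested gamma constant genes (yellow), and 11 signalling genes (grey), with open points where the adjusted p was 0.05 or more. The open points are *Trdc* at 1.28, *Cd8a* at 2.50, and *Fyn* at 0.24.

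Reads on the variable genes gave a further view of the receptor. Beta variable genes (*Trbv*, 35 rows) had 17, 8, and 4 reads in all with AAV5-*Gfp* and 128, 85, and 64 reads with AAV5-*V1+V2*, with no overlap between the groups. The reads were spread over many genes, with 21, 22, and 19 of the 35 rows holding a read after AAV5-*V1+V2*, against 12, 6, and 4 in the controls. The row with the most reads held 14.8% of the beta variable reads in AAV5-*V1+V2* replicate 1 (*Trbv19*), 14.1% in replicate 2 (*Trbv31*), and 14.1% in replicate 3 (*Trbv12-2*). These shares rest on 128, 85, and 64 reads, and whether the leading gene differed between libraries beyond counting error was not tested. *Trbv19* had 0, 0, and 0 reads with AAV5-*Gfp* and 19, 2, and 8 reads with AAV5-*V1+V2*, *Trbv13-1* had 1, 1, and 0 against 14, 9, and 6 reads, and *Trbv13-2* had 2, 1, and 1 against 13, 5, and 7 reads. No beta variable gene had enough reads to be tested.

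The alpha variable genes (*Trav*, 128 rows, including those shared with the delta chain) gave another picture. They had 56, 48, and 61 reads in all with AAV5-*Gfp* and 104, 97, and 87 reads with AAV5-*V1+V2*, where the summed level was 1.70 times that of AAV5-*Gfp*, against 9.38 times for the beta variable genes. Of the 84 alpha variable rows with a read, 22 had no more reads in all after AAV5-*V1+V2* than in the controls. *Trav4-3*, the only variable gene tested, had 12, 11, and 10 reads with AAV5-*Gfp* and 5, 5, and 10 reads with AAV5-*V1+V2* (log2 fold change -0.75, standard error 0.38, adjusted p = 0.203 by edgeR's test). *Trav5-2* had 6, 7, and 5 against 4, 6, and 7 reads, and *Trav12-3* had 8, 2, and 4 against 6, 5, and 7 reads. In contrast, 47 alpha variable rows held reads with AAV5-*V1+V2* and none with AAV5-*Gfp*, and 5 the reverse. The number of alpha variable rows with a read was 22, 19, and 24 with AAV5-*Gfp* and 54, 54, and 39 with AAV5-*V1+V2*. Many alpha variable genes are near-identical copies, so the counts of single rows are uncertain.

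Gamma and delta variable genes held few reads. The gamma variable genes had 2, 2, and 1 reads with AAV5-*Gfp* and 12, 14, and 6 reads with AAV5-*V1+V2*, most of them on *Trgv2* (2, 2, and 0 against 9, 11, and 5 reads). *Tcrg-V4* had 0, 0, and 1 against 2, 1, and 1 reads, and *Tcrg-V5* had 1 read in AAV5-*V1+V2* replicate 1. The delta variable genes had 4, 3, and 1 reads with AAV5-*Gfp* and 3, 2, and 4 reads with AAV5-*V1+V2*, and the groups overlapped. *Trdv2-2* had 0, 0, and 1 against 2, 2, and 2 reads, *Trdv4* had 3, 2, and 0 against 0, 0, and 1, and *Trdv5* had 1, 1, and 0 against 0, 0, and 1. The joining genes of the alpha (60 rows) and beta chains (14 rows), which are very short, had 0 reads in every library.

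**Figure D5:**
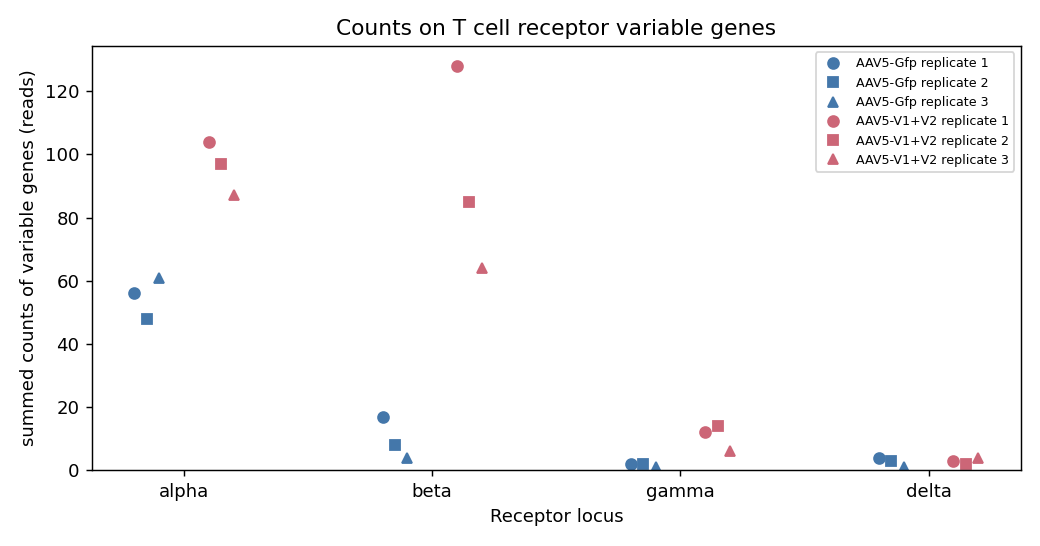
Summed reads on the variable genes of each receptor locus in each library, with AAV5-*Gfp* in blue and AAV5-*V1+V2* in red. Beta variable reads were 4 to 17 with AAV5-*Gfp* against 64 to 128 with AAV5-*V1+V2*, and delta variable reads were 1 to 4 and 2 to 4.

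Of 4 genes of receptor recombination and thymocytes, 3 were at or near 0. *Rag1* had 1, 1, and 1 reads with AAV5-*Gfp* and 1, 2, and 1 reads with AAV5-*V1+V2*, *Rag2* had at most 1 read in any library, and *Ptcra*, the pre-T cell receptor alpha chain, had 0 reads in every library. *Dntt*, which adds bases at the joins, had 6, 13, and 8 reads with AAV5-*Gfp* and 57, 19, and 21 reads with AAV5-*V1+V2*, a log2 fold change of 1.81 with an adjusted p of 0.0621 in edgeR's test. It passed in DESeq2 (adjusted p = 0.0289), in edgeR with no filter (0.0451), and in edgeR without AAV5-*V1+V2* replicate 3 (0.0411), and without AAV5-*V1+V2* replicate 1 the log2 fold change was 1.10. Of 8 other T cell genes, 7 were higher, among them *Tcf7* (log2 fold change 2.29, standard error 0.37), *Il7r* (2.56, standard error 0.32), *Icos* (3.76, standard error 0.64), and *Ctla4* (3.88, standard error 0.57). Without AAV5-*Gfp* replicate 1 the value was 4.79 for *Icos*, and *Tcf7* and *Ctla4* were just over the threshold, while without AAV5-*V1+V2* replicate 1 the value was 3.26 for *Ctla4*. None of these 4 genes passed with AAV5-*Gfp* replicate 2 or 3 removed. *Lef1*, at 0.26 (standard error 0.22), did not pass. It had 497, 567, and 700 reads in the controls against 20, 9, and 6 for *Cd3e*, and the part of other cells in its level was not tested. Of 6 genes used by gamma-delta and other innate-like T cells, 5 were tested and 1, *Il23r*, was higher (log2 fold change 2.08, standard error 0.50), a call lost in limma-voom (adjusted p = 0.0614) and with any AAV5-*Gfp* library or AAV5-*V1+V2* replicate 2 removed, and a value that was 1.43 without AAV5-*V1+V2* replicate 1. The summed level of the 6 was 71.9 and 56.3 CPM in AAV5-*Gfp* replicates 1 and 2 and 213 CPM in replicate 3, against 97.1 to 137 CPM after AAV5-*V1+V2*. *Zbtb16* made most of the sum in every library, at 47.6, 31.1, and 188 CPM with AAV5-*Gfp* and 70.2, 80.2, and 112 CPM with AAV5-*V1+V2*. The summed levels of the groups overlapped, and were apart only without AAV5-*Gfp* replicate 3. The log2 fold change was -0.02 for *Zbtb16* and -0.12 for *Sox13*, and neither passed edgeR's test. Both had far more reads than *Cd3e* in every control, so the sum need not follow gamma-delta T cells.

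Markers of other cells moved beside the receptor genes, and their part in the result was not tested. Natural killer cells matter here because they also express *Cd247*, *Lck*, and *Zap70*. Of 7 genes listed for them, 5 were higher, and *Klrb1c* and *Eomes* did not pass. The summed level was 1.93 to 3.56 CPM in the controls against 8.42 to 20.3 CPM. Cytotoxic T cells can express some of the 7 as well, *Gzma* and *Prf1* among them, so the list does not stand for natural killer cells alone. The log2 ratio of *Cd3e* to *Ncr1*, a natural killer cell receptor gene, was -0.83, -0.96, and -0.94 with AAV5-*Gfp* and 1.46, 1.01, and 0.90 with AAV5-*V1+V2*, without overlap. This ratio does not stand for all 7, because *Ncr1* had the smallest log2 fold change of them, 1.76. The median of the 7 was 2.55 and the largest was 3.62 for *Klre1*, beside 3.88 for *Cd3e*. All 7 B cell genes were higher (16.1 to 24.96 CPM against 110 to 258 CPM). Of 6 macrophage genes, 5 were higher (104 to 146 CPM against 221 to 402 CPM). Of 6 genes listed for lymph node, 4 were higher (10.4 to 12.6 CPM against 30.5 to 67.4 CPM), and *Ccl21a* and *Madcam1* did not pass. The 4 were *Ccl19*, *Glycam1*, *Cr2*, and *Fcer2a*, and B cells also express the last 2. *Cr2* alone had 4.96 to 6.10 CPM with AAV5-*Gfp* and 18.3 to 35.2 CPM with AAV5-*V1+V2*. None of the 5 erythrocyte genes passed (889 to 1066 CPM against 830 to 1248 CPM), nor did any of 5 glial genes (2238 to 2692 CPM against 2366 to 2632 CPM), in edgeR, DESeq2, or limma-voom. By edgeR, 1 gene of each of these lists had an unadjusted p under 0.05. In none of these lists was a marker at 0 in every library.

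The genes whose pattern was most like that of *Cd3e* over the 6 libraries, among 16064 other genes with a mean of at least 1 CPM, were *Ptprc*, *Gpr174*, *Cd52*, *Cd48*, and *Trbc2*. Their Pearson correlations of log2 CPM (0.5 added) with *Cd3e* were 0.9995, 0.9990, 0.9990, 0.9989, and 0.9988, as a description of 6 points in separate groups, and 236 genes had a correlation over 0.99. Of the receptor complex genes with that mean level, *Cd247* had 0.996, *Cd3d* 0.991, *Lck* 0.991, *Trac* 0.9898, *Cd3g* 0.988, *Trbc1* 0.984, and *Zap70* 0.977. *Ptprc* had 1289, 963, and 811 reads in the controls against 11917, 5400, and 4804 reads after AAV5-*V1+V2*. The log2 ratio of *Cd3e* to *Ptprc* was -5.98, -6.66, and -6.96 with AAV5-*Gfp* and -5.37, -5.43, and -5.34 with AAV5-*V1+V2*, so the groups did not overlap.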

How the data were processed

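RNA sequencing of microinjected DRGs was analysed in 6 libraries (3 with AAV5-*Gfp*, 3 with AAV5-*V1+V2*), grouped by their labels. As deposited, 1 table holds raw counts for each gene symbol and library, from stranded total RNA libraries. The submitters' processing notes name GRCm38 and mm10, and the aligner, the counter, the annotation, the use of strand, and the treatment of multimapping reads are not given in the sources used here. Whether libraries came from separate animals is not stated, so p-values measure the spread between these libraries. No pair of libraries agreed within sampling noise.

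Counts were filtered with filterByExpr, scaled by TMM, and fitted with glmQLFit, then glmQLFTest (R 4.3.3, edgeR 4.0.16) over 18593 genes, without a covariate, with Benjamini-Hochberg adjustment over all of them. Standard errors are the absolute log2 fold change divided by the square root of F. The steps were tested on simulated data. Alternatives were RLE, upper quartile, and total count scaling, no filter, DESeq2 1.42.0, limma-voom (limma 3.58.1), a replicate block, summed suffixed rows, and leaving out each library. Coordinates and lengths are from GENCODE M21.

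The members and lists were chosen with earlier results of these data known. Named were all 10 members, 11 signalling genes and the gamma constant and recombination genes listed by role, the 3 variable genes of each locus with the highest mean CPM, and the 5 genes nearest to *Cd3e*. Other T cell genes and genes of other cell types that are named, *Rasgrp1*, *Gm43434*, *Pou2f1*, *Trbv31*, *Trbv12-2*, and the ratios other than *Trac* to *Trdc* were chosen after their values were seen. Results for some genes of these lists are not reported here.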

Additional observations from a re-analysis of the deposited data

How the results depend on the processing

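All 10 receptor complex genes kept a positive log2 fold change in all 14 alternative fits. The number called higher was 9 in each of the 8 alternatives with all 6 libraries, and ranged from 0 to 10 over the 6 fits with 1 library removed (0 if AAV5-*Gfp* replicate 2 or 3 was removed). In those 6 fits all 10 had an unadjusted p under 0.05, and 0 were called lower. Signalling genes called higher ranged from 0 to 31 and those called lower from 0 to 1 with a library removed. The 1 lower signalling gene was lost (0 called, 1 at an unadjusted p under 0.05) with total counts only, no filter, or limma-voom. Over all genes, 12 to 2474 were higher and 0 to 1446 lower with a library removed, and edgeR found 2029 and 1815 lower genes by unadjusted p in the fits that called 0 (AAV5-*Gfp* replicate 2 or 3 removed). DESeq2 called 1606 lower. *Pou2f1*, called in none, changed sign, with log2 fold changes of -0.000745 (RLE), -0.0258 (upper quartile), -1.01e-05 (no filter), -0.000769 (DESeq2), -0.00530 (limma-voom), -0.00508 (replicate block), and from -0.0972 to 0.0682 with a library removed. The causes were not tested.

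The difference in the log2 ratio of *Trac* to *Trdc* was 1.59 with 3 counts added to each, 1.74 with the summed constant genes, and 1.14 to 1.84 with a library removed (exact permutation p = 0.2, the smallest possible there). The alpha-beta share was 25.2 percentage points higher, or 17.1 for *Trac* against *Trdc* alone. Deviations from the group mean correlated weakly between same-numbered replicates (0.038, 0.065, and 0.139), against -0.138 to 0.0719 for differently numbered ones. The labels state no pairing, and the numbers were not taken as pairs. With a replicate block, 9 of the 10 genes and 32 signalling genes were higher, 1 signalling gene was lower, and 2118 and 1341 of all genes were higher and lower.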
